A study of Mus musculus with 6 samples.

Results

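The multimerin, emilin and Egfl7 genes are 5 genes for secreted matrix proteins: Mmrn1, Mmrn2, Egfl7, Emilin1 and Emilin2. Their probe sets were taken by gene symbol from the platform annotation, which gave 13 of the 45101 probe sets and 5 of the 18193 genes on the array: 4 each for Mmrn2 and Egfl7, 2 each for Mmrn1 and Emilin1 and 1 for Emilin2. Signals were measured on Affymetrix mouse arrays in 3 groups of 2 arrays each, all from ICR mice at 8.5 days post coitum, with 3 to 4 somites and before blood circulates. The first group was Flk1-positive cells. Flk1 is the protein of Kdr, a receptor for VEGF on endothelial cells and their precursors. The second was Flk1 KO embryos, in which that receptor gene is knocked out, and the third was wild-type (WT) embryos; both embryo groups were the embryo proper. Embryos called Flk1+/GFP are listed among the sources in the design text, so a difference in genotype between the Flk1-positive cells and WT embryos cannot be told apart from the group. How the cells were selected, which knockout allele was used and whether a group's 2 arrays came from separate animals or pools are not given in the sources used here, so p-values measure only the spread between these arrays, which may be technical.

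Multimerins and emilins share a plan: an EMI domain near the start of the protein, a long coiled-coil stretch and a C1q-like domain at the end, through which the chains assemble into large multimers. Mmrn1 is stored in platelets and endothelial cells, where in human platelets it carries coagulation factor V, and Mmrn2 is a matrix protein of blood vessels. Emilin1 sits on elastic fibres, holds cells through integrins and limits the maturation of TGF-beta, and Emilin2 is a related glycoprotein known from the developing heart. Egfl7 is a small secreted protein with an EMI domain and EGF-like repeats, is made mainly by endothelial cells, guides vessel tube formation and binds Notch receptors.

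The Egfl7 gene also hosts a microRNA, so its transcript is shown with that sequence. In RefSeq (GRCm38.p6) the span of Egfl7 holds mmu-miR-126a-3p on the same strand, at chr2:26591402-26591423, printed here 5′ to 3′ with its seed, bases 2 to 8, in capitals.
mmu-miR-126a-3p: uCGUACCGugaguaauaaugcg
No probe set is annotated to its gene, Mir126a, so no level of it is given. Promoters are shown for Egfl7 and Emilin1, which were higher in Flk1-positive cells, and for Emilin2, which was lower there. That of Mmrn1, also higher there, was searched but is not printed. RefSeq promoter entries were found for 4 of the 5 genes, with 3 starts for Egfl7, 2 for Emilin2 and 1 each for Emilin1 and Mmrn1, and Mmrn2 is named only. Each line gives the 250 bases before the start site in GRCm38.p6, read along the gene's own strand. Capitals mark AGGAAG on either strand, a spelling of the motif read by ETS factors, a family of endothelial transcription factors. Other spellings of that motif were not searched or marked.
Egfl7 chr2:26580833-26581082 (+ strand): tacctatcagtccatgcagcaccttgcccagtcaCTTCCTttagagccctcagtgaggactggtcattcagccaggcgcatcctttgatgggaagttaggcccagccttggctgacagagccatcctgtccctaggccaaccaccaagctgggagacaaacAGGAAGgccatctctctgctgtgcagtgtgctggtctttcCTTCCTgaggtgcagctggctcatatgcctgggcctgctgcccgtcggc
Egfl7 chr2:26583615-26583864 (+ strand): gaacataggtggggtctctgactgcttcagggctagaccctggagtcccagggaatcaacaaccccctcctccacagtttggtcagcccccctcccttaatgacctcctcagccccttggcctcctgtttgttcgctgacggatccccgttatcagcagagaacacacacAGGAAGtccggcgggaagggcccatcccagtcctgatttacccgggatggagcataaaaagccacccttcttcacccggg
Emilin1 chr5:30913536-30913785 (+ strand): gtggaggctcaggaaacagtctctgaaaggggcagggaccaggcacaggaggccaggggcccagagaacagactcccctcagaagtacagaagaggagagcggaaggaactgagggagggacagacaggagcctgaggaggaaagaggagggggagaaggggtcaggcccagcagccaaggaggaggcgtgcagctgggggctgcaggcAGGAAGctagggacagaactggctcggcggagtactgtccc
Emilin2 chr17:71311557-71311806 (- strand): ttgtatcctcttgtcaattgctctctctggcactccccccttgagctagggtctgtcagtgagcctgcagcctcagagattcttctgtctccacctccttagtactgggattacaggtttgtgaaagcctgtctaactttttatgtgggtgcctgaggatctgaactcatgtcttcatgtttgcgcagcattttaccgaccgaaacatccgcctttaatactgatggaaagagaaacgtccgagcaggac
AGGAAG was found 3 times before the first Egfl7 start, once before the second and once before the Emilin1 start, 41 bases ahead of it. It was in none of the windows of the third Egfl7 start, the Mmrn1 start and both Emilin2 starts. Of these only the first Emilin2 window is printed, whereas every window with AGGAAG is. The printed lines therefore show no link between the motif and the direction of a gene. Of all 32851 RefSeq promoter windows of this length, 29.5% held it on 1 strand or the other. Another 3 strings of letters were searched on both strands, each a single spelling of a motif. AGATAA, a spelling for the blood and endothelial GATA family (in 9.99% of all windows), was in none of the 7 windows. Nor was GTAAACA, a spelling for forkhead factors (3.17%). ACAATG, a spelling for SOX factors (10.7%), was in the Mmrn1 window only. Other spellings of these motifs were not searched, so their absence is not shown. These matches are descriptions of letters and were tested for no effect.

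Precision is limited by having 6 arrays. These were on a common scale, with within-group correlations of 0.980 to 0.985 across probe sets. The background level, taken from 80 olfactory and vomeronasal receptor probe sets, was a signal of 57.4, and 54.3% to 57.8% of probe sets lay above it. Kdr itself read 3309 and 3328 in Flk1-positive cells, 29.5 and 63.8 in Flk1 KO embryos, and 544 and 546 in WT embryos. It was highest in both arrays of the cells and lowest in both Flk1 KO arrays. Differences are given on the log2(signal + 21.6) scale, as Flk1-positive cells or Flk1 KO embryos minus WT embryos, or the cells minus Flk1 KO embryos, ± SE from limma with 2 arrays per group. This scale understates the change of dim genes. Where the dimmer group's mean was below background, the fold is a lower bound on that scale, the brighter mean over the background level. As a measure of RNA quality, the transferrin receptor control was brighter at its 3′ than its 5′ end by 1.33 and 1.44 (log2) in Flk1-positive cells, 0.998 and 1.09 in Flk1 KO embryos, and 1.04 and 0.971 in WT embryos. The Actb control ran the other way, with 0.26 and 0.29 in Flk1-positive cells, 0.47 and 0.58 in Flk1 KO embryos, and 0.57 and 0.55 in WT embryos, and the Gapdh control lay between -0.37 and -0.32 on all arrays. The part of RNA quality in the differences of Flk1-positive cells was not tested.

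The first comparison set Flk1-positive cells against WT embryos, and so asks which transcripts these cells carry at higher levels than the embryo proper in bulk. Mmrn1, Mmrn2, Egfl7 and Emilin1 were higher in the cells and Emilin2 was lower. Of the 13 probe sets, 12 passed the filter on low values and were tested, and 11 of them were higher and 1 lower. Over all 33778 probe sets tested, 11.6% were called higher and 14.4% lower. The arrays of the cells lay entirely above those of WT embryos for the same 11 and entirely below for Emilin2, against 31.3% and 36.9% of all probe sets tested. The median difference of the 12 was 2.95, against -0.04 over all probe sets tested.

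**Figure D1:**
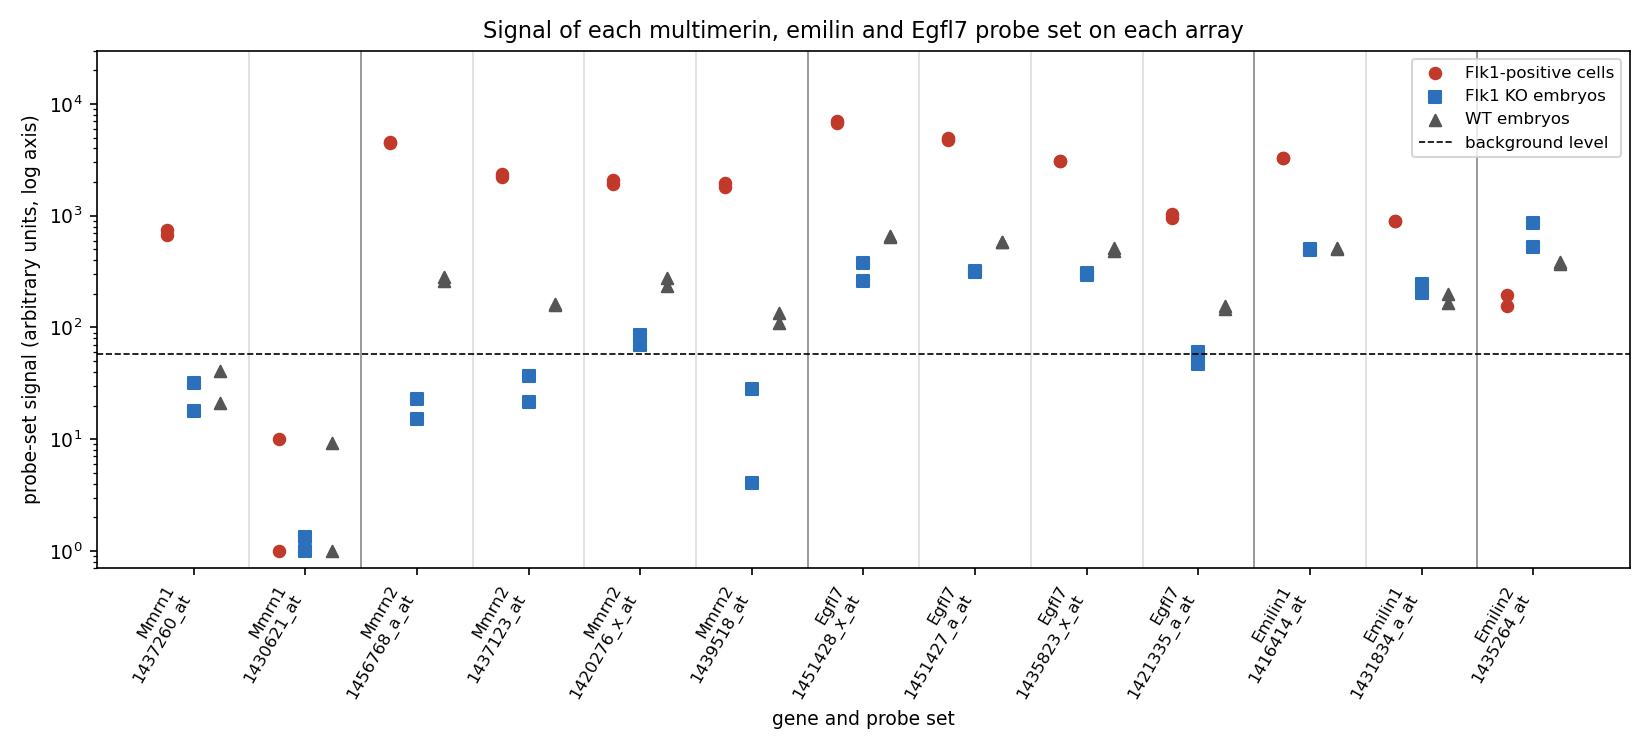
Signal on each array (log axis, arbitrary units) of the 13 multimerin, emilin and Egfl7 probe sets, with 2 points per group and the background level of 57.4 as a dashed line. Flk1-positive cells lie above both embryo groups for 11 probe sets and below both for Emilin2, and the second Mmrn1 probe set lies at or below 10.1 on all arrays.

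Mmrn1 was measurable in the cells and not in either group of embryos. Its probe set 1437260_at read 747 and 673 in Flk1-positive cells, 31.8 and 17.9 in Flk1 KO embryos, and 21.0 and 40.3 in WT embryos. All 4 embryo arrays were below background, so the cells exceeded WT embryos by at least 9.25-fold (3.83 ± 0.24; limma adjusted p = 0.000587). The second Mmrn1 probe set, 1430621_at, had signals between 1, the floor of the table, and 10.1 on all 6 arrays. It did not pass the filter and shows no level in any group, Flk1-positive cells included, so the Mmrn1 difference rests on 1 probe set.

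Mmrn2 had 4 probe sets and all were higher in Flk1-positive cells. The brightest by mean signal, 1456768_a_at, read 4544 and 4479.6 in Flk1-positive cells, 22.9 and 15.2 in Flk1 KO embryos, and 281 and 263 in WT embryos. The cells exceeded WT embryos 15.4-fold (3.95 ± 0.15; limma adjusted p = 0.000388). The 3 groups stood apart on every array, with the cells highest and the Flk1 KO embryos lowest. Probe set 1437123_at had 2205.5 and 2358 in Flk1-positive cells, 37.0 and 21.5 in Flk1 KO embryos, and 158 and 162 in WT embryos. Probe set 1439518_at had 1815 and 1945 in Flk1-positive cells, 28.3 and 4.04 in Flk1 KO embryos, and 134 and 109 in WT embryos. Probe set 1420276_x_at had 2105 and 1927 in Flk1-positive cells, 85.3 and 69.4 in Flk1 KO embryos, and 278 and 234 in WT embryos. The order of the groups was the same for all 4, and the differences from WT embryos ran from 2.88 to 3.95. The smallest was that of 1420276_x_at, a probe set whose suffix says that some of its probes also match other transcripts.

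Egfl7 was higher in Flk1-positive cells in all 4 of its probe sets. Probe set 1451428_x_at read 7066 and 6808 in Flk1-positive cells, 379 and 258 in Flk1 KO embryos, and 661 and 647 in WT embryos. The cells exceeded WT embryos 10.3-fold (3.36 ± 0.20; limma adjusted p = 0.000519). This probe set was above background on all 4 embryo arrays. Probe set 1451427_a_at had 4992 and 4719 in Flk1-positive cells, 316 and 318 in Flk1 KO embryos, and 579 and 584 in WT embryos. Probe set 1435823_x_at had 3069 and 3098 in Flk1-positive cells, 305 and 293 in Flk1 KO embryos, and 519 and 483 in WT embryos. Probe set 1421335_a_at had 951 and 1042 in Flk1-positive cells, 47.4 and 59.9 in Flk1 KO embryos, and 156 and 147 in WT embryos. Differences from WT embryos ran from 2.56 to 3.36, and no array of 1 group overlapped another group in any of the 4.

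Emilin1 was higher in Flk1-positive cells while both embryo groups lay close together. Probe set 1416414_at read 3258 and 3292 in Flk1-positive cells, 492 and 504 in Flk1 KO embryos, and 513 and 505 in WT embryos. The cells exceeded WT embryos 6.22-fold (2.64 ± 0.12; limma adjusted p = 0.000388). Probe set 1431834_a_at had 902 and 889 in Flk1-positive cells, 247 and 204 in Flk1 KO embryos, and 199.7 and 167 in WT embryos, a difference of 2.17 ± 0.16 between the cells and WT embryos (limma adjusted p = 0.000784). Both were called higher, and neither showed the cells overlapping an embryo array.

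Emilin2 went the other way. Its single probe set, 1435264_at, read 154 and 197 in Flk1-positive cells, 865 and 525 in Flk1 KO embryos, and 373 and 383 in WT embryos. The cells were 2.04-fold below WT embryos (-1.03 ± 0.26; limma adjusted p = 0.0381). All 6 arrays were above background, so the cells did not lack the signal. This call was lost without either Flk1-positive array or either WT array (limma adjusted p between 0.0783 and 0.149), while the difference lay between -1.18 and -0.87.

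The second comparison, of Flk1 KO with WT embryos, asks what changes with the loss of the receptor. Mmrn2 was the only gene of the 5 with a call, and it was lower in Flk1 KO embryos. Of the 12 probe sets tested, 1 was lower and 0 were higher with limma, against 0.0799% and 0% of all probe sets tested. At an unadjusted p under 0.05 there were 9, namely the 4 of Mmrn2, the 4 of Egfl7 and that of Emilin2. Of these 8 were lower and 1 higher, against 5.91% and 2.48% of all probe sets tested at that threshold. In bulk embryos, fewer cells of a type and less RNA per cell cannot be told apart.

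The called Mmrn2 probe set was 1456768_a_at. Its Flk1 KO signals were below background, so they were at least 3.72-fold below WT embryos (-2.86 ± 0.15; limma adjusted p = 0.0200). By p-value it ranked 4 among 33778 probe sets. The other Mmrn2 probe sets had differences of -1.86 ± 0.18, -1.49 ± 0.16 and -1.99 ± 0.32 for 1437123_at, 1420276_x_at and 1439518_at, in that order, without a call (limma adjusted p = 0.0728, 0.0847 and 0.200). Of these, 1420276_x_at was above background on both Flk1 KO arrays, and on 1437123_at and 1439518_at the Flk1 KO arrays were below it. The call of 1456768_a_at was lost on leaving out any 1 of the 6 arrays, those of the Flk1-positive cells included (limma adjusted p between 0.106 and 0.301), with differences between -2.996 and -2.72.

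Egfl7 had no call in Flk1 KO embryos. Its 4 probe sets had differences from WT embryos of -1.01 ± 0.20, -0.83 ± 0.12, -0.70 ± 0.12 and -1.21 ± 0.15 for 1451428_x_at, 1451427_a_at, 1435823_x_at and 1421335_a_at, in that order (limma adjusted p = 0.271, 0.165, 0.223 and 0.109). Both Flk1 KO arrays were below both WT arrays for each of them. Together with Mmrn2 and the first Emilin1 probe set, 9 of the 12 probe sets had Flk1 KO signals entirely below WT signals, against 21.4% of all probe sets tested, and 2 entirely above, against 16.7%. Egfl7 signals in Flk1 KO embryos of 258 to 379, 316 to 318 and 293 to 305 for the first 3 of these were above background, whereas 1421335_a_at, at 47.4 and 59.9, lay around it. The 4 Mmrn2 probe sets read 4.04 to 85.3 in the same embryos. Whether the Mmrn2 and Egfl7 differences are unequal was not tested.

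Emilin1, Emilin2 and Mmrn1 had no call in Flk1 KO embryos either. The Emilin1 probe sets differed from WT embryos by -0.03 ± 0.12 and 0.27 ± 0.16 (limma adjusted p = 0.968 and 0.739), and the first of these changed sign with median centring of the arrays (0.071). Emilin2 had both Flk1 KO arrays above both WT arrays with a difference of 0.80 ± 0.26 (limma adjusted p = 0.498). Its Flk1 KO arrays differed more from each other, at 865 and 525, than its WT arrays, at 373 and 383. For Mmrn1 all 4 embryo arrays were below background and overlapped, so no difference between them was measurable.

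**Figure D2:**
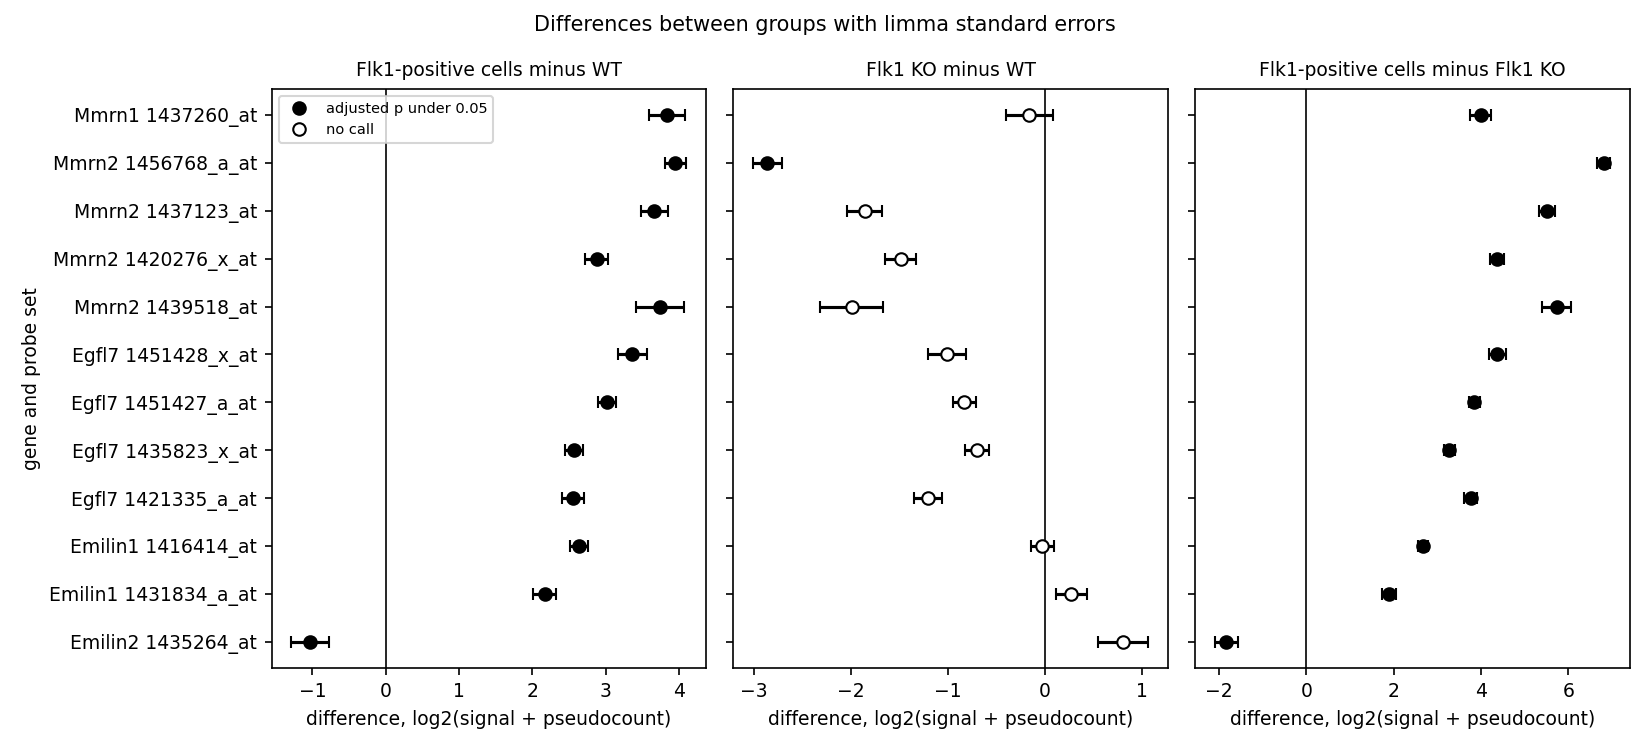
Differences between groups on the log2(signal + 21.6) scale for the 12 tested probe sets, with limma standard errors as bars, filled where the adjusted p is under 0.05 and open where it is not. In the middle panel only Mmrn2 1456768_a_at is filled, the Egfl7 points lie between -1.21 and -0.70, and the Emilin1 points lie near 0.

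Flk1-positive cells were also set against Flk1 KO embryos, a comparison that shares arrays with both others. The same 11 probe sets were higher and that of Emilin2 lower, against 13.8% and 15.4% of all probe sets tested. Their arrays did not overlap either, as for 32.2% of all probe sets tested upward and 34.0% downward. Mmrn2 1456768_a_at was at least 57.4-fold above Flk1 KO embryos in Flk1-positive cells (6.81 ± 0.15; limma adjusted p = 8.81e-05). The Egfl7 differences ran from 3.28 to 4.38 and those of Emilin1 from 1.90 to 2.67. Mmrn1 was at least 9.25-fold higher (3.99 ± 0.24; limma adjusted p = 0.000403). Emilin2 was 3.55-fold lower (-1.83 ± 0.26; limma adjusted p = 0.00569), and this call, unlike that against WT embryos, held on leaving out each array in turn.

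The genes with the most similar profiles over the 6 arrays were found by Euclidean distance between log2 values centred on each gene's mean, over 12449 genes with 1 probe set each. For Mmrn2 they were the transcription factor Sox18 (distance 0.39), the tight junction gene Cldn5 (0.42) and the endothelial adhesion gene Esam (0.45). For Egfl7 they were the growth factor Pdgfb (0.10), the adrenomedullin receptor component Ramp2 (0.35) and Tgfb1 (0.37). Among the 3 nearest genes to Mmrn1 were the flow-responsive factor Klf2 (0.42) and the synaptic scaffold gene Shank3 (0.56). Emilin1 was nearest to S100a13, a calcium-binding protein gene (0.18), to Arhgef6, an exchange factor gene (0.19), and to Kank3 (0.20). Emilin2 lay nearest to Sh3bgr (0.33), Kbtbd11 (0.33) and Hspb2, a small heat shock protein gene of heart and muscle (0.38). A small distance does not mean equal levels. Pdgfb and Arhgef6 had Flk1 KO means below background, whereas the Egfl7 and Emilin1 probe sets compared had theirs above it. Klf2 and Shank3 had theirs above background, whereas Mmrn1 had its own below. Distances that involve means below background depend on the pseudocount. All of them describe 3 group levels with 2 arrays each, and no p-value is attached to them.

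The proteins that the family works with were read from a list of 17 genes, all tested. The list was chosen with earlier results of these data known, and each gene is its probe set of highest mean signal. The shares below are therefore no test of the list. In Flk1-positive cells 11 were higher and 1 was lower than in WT embryos, against 11.6% and 14.4% of all probe sets tested. The median difference was 1.13, against -0.04 over all probe sets tested. Of the receptors that bind Mmrn2, known from human proteins, the endothelial lectins Clec14a and Cd93 were at least 40.7-fold and 21.8-fold higher (5.41 ± 0.12 and 4.45 ± 0.15; limma adjusted p = 0.000388 for each). Clec14a read 3231 and 3157 in Flk1-positive cells, 16.6 and 13.9 in Flk1 KO embryos, and 55.4 and 53.1 in WT embryos. Cd93 had 4743 and 5001 in Flk1-positive cells, 23.4 and 33.4 in Flk1 KO embryos, and 198 and 207 in WT embryos. Both are lectin-like receptors of the endothelial surface. The third receptor, Cd248, which is known from pericytes and fibroblasts, had 90.9 and 105 in Flk1-positive cells, 147 and 247 in Flk1 KO embryos, and 105 and 72.5 in WT embryos, with overlapping arrays between the cells and WT embryos and no call (0.13 ± 0.27). Vegfa, a growth factor that Mmrn2 binds, differed by -0.32 ± 0.19 without a call.

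The platelet partners of Mmrn1 were higher in Flk1-positive cells. F5, which encodes factor V, read 746 and 706 in Flk1-positive cells, 65.0 and 56.7 in Flk1 KO embryos, and 42.2 and 54.9 in WT embryos. The cells exceeded WT embryos by at least 9.46-fold (3.42 ± 0.15; limma adjusted p = 0.000388). The platelet integrin genes Itga2b (2.81 ± 0.18) and Itgb3 (at least 3.29-fold) were higher as well. Itgb3 had log2 means of 5.15 in Flk1 KO and 4.65 in WT embryos, below the filter at 5.44. It was thus tested only through its signal in the cells, which favours a higher call. The integrins that hold Emilin1 are built from Itga4, Itga9 and Itgb1, and they were higher by 0.93 ± 0.24, 1.13 ± 0.14 and 1.04 ± 0.14 (limma adjusted p = 0.0416, 0.00418 and 0.00534). The Itga4 call was lost without either Flk1-positive array or either WT array. Tgfb1, whose maturation Emilin1 limits, was 3.66 ± 0.18 higher, while Furin, a protease of that maturation, differed by 0.41 ± 0.21 without a call.

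Of the Notch receptors, only Notch1 and Notch4 were on the list, as receptors bound by Egfl7. Notch1 was higher in Flk1-positive cells by 1.95 ± 0.13 and Notch4 by 2.82 ± 0.22 (limma adjusted p = 0.000598 and 0.000882). Other Notch receptors were not read here. Itgav, an integrin subunit of many cell types, differed by 0.09 ± 0.13 without a call. Wnt1, a neural ligand that Emilin2 binds, was at least 3.02-fold lower in Flk1-positive cells (-2.32 ± 0.26; limma adjusted p = 0.00309), and the death receptor Tnfrsf10b, another Emilin2 partner known from human, had no call (limma adjusted p = 0.95). In Flk1 KO embryos 1 of the 17 was lower than in WT embryos and 0 were higher, against 0.0799% and 0% of all probe sets tested. The median was 0.08, against -0.02 over all probe sets tested. The lower gene was Cd93, at least 2.84-fold lower (-2.17 ± 0.15, limma adjusted p = 0.0427), a call lost on leaving out any 1 array.

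**Figure D3:**
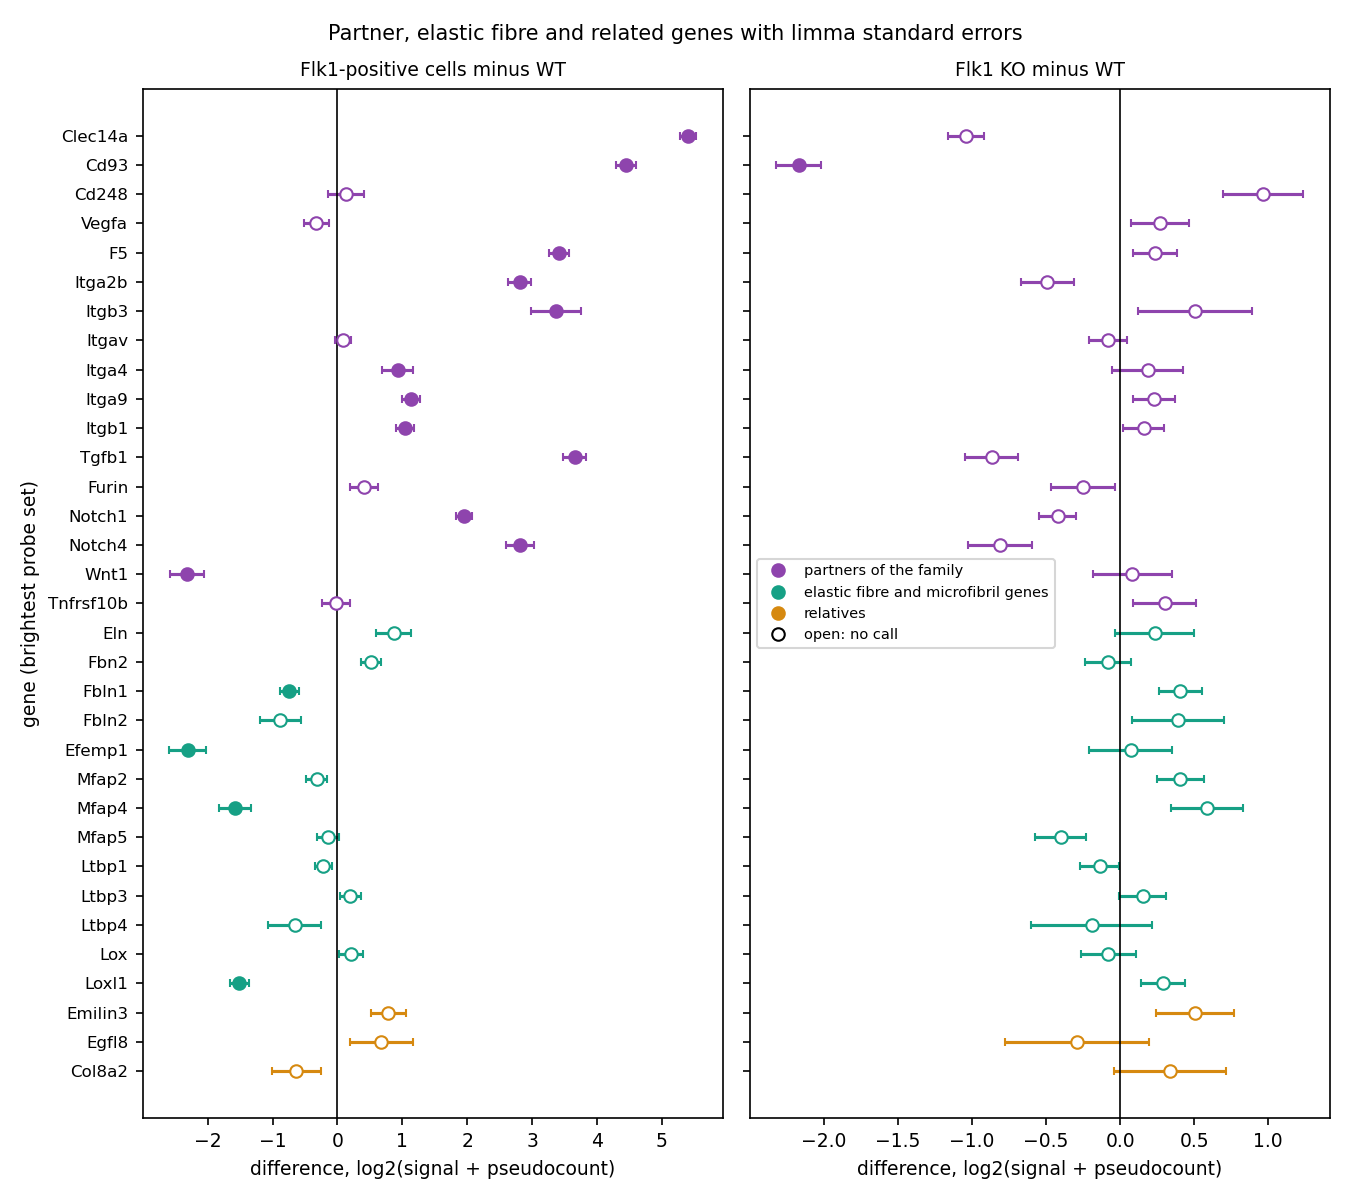
Differences from WT embryos in Flk1-positive cells (left) and Flk1 KO embryos (right) for partner genes, elastic fibre and microfibril genes and relatives of the family, on the log2(signal + 21.6) scale with limma standard errors. Filled points have an adjusted p under 0.05, and in the right panel this is Cd93 only.

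Elastic fibre and microfibril genes make up the matrix in which Emilin1 is best known. Of 17 listed, 15 were on the array by name and 13 were tested, and in Flk1-positive cells 0 were called higher and 4 lower than in WT embryos with limma, beside 11.6% and 14.4% of all probe sets tested, with a median of -0.32. The fibulin gene Efemp1 was at least 2.02-fold lower (-2.31 ± 0.28), the crosslinking enzyme gene Loxl1 at least 2.71-fold (-1.51 ± 0.15), the microfibril gene Mfap4 at least 1.03-fold (-1.58 ± 0.25) and Fbln1 1.67-fold (-0.74 ± 0.14), with limma adjusted p-values of 0.0038, 0.00198, 0.0086 and 0.0173. The Fbln1 call was lost without either Flk1-positive array or either WT array. Elastin (Eln) read 164 and 94.4 in Flk1-positive cells, 76.5 and 69.6 in Flk1 KO embryos, and 70.7 and 48.4 in WT embryos, and its difference of 0.87 ± 0.27 had no call (limma adjusted p = 0.067). Under 7 of the 15 alternatives it was called higher (limma adjusted p between 0.030 and 0.0436), among them the omission of the second Flk1-positive array. Fbn2, a fibrillin gene, differed by 0.51 ± 0.15 without a call (limma adjusted p = 0.0635), and was called higher under 3 alternatives. Fbln2, a fibulin gene, differed by -0.88 ± 0.31 without a call (limma adjusted p = 0.0953). It was called lower with the pseudocount at the median, the filter at the 50th percentile, the intensity trend and the replicate block. Against Flk1 KO embryos 1 of the 13 was called higher in the cells and 6 lower, beside 13.8% and 15.4% of all probe sets tested. The higher gene was Fbn2 (limma adjusted p = 0.0389), a call lost on leaving out any 1 array. Among the lower genes, the Fbln2 call was lost on leaving out any array other than Flk1-positive replicate 1. The Mfap2 call was lost on leaving out any array other than Flk1 KO replicate 2. In Flk1 KO against WT embryos 0 of the 13 were called in either direction.

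Relatives outside the 5 genes gave little signal. Emilin3 had 69.0 and 61.5 in Flk1-positive cells, 71.5 and 33.1 in Flk1 KO embryos, and 27.8 and 29.7 in WT embryos, and Egfl8, the paralog of Egfl7, had 94.5 and 108 in Flk1-positive cells, 78.9 and 17.6 in Flk1 KO embryos, and 78.5 and 37.2 in WT embryos. Neither was called in any comparison with all 6 arrays. Emilin3 was called higher in the cells against WT embryos when only these groups were fitted or either Flk1 KO array was left out (limma adjusted p = 0.0172 to 0.0173). Of the C1q-domain collagen genes Col8a1, Col8a2 and Col10a1 only Col8a2 was tested, without a call.

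Cell type markers were read beside these results. The summed signal of 8 endothelial markers was 34440.0 and 34599 in Flk1-positive cells, 605 and 691 in Flk1 KO embryos, and 2420.1 and 2238 in WT embryos. All 8 were higher in the cells, relative to WT embryos, by 3.38 to 4.34, a range that holds 3 of the 4 Mmrn2 probe sets. The Egfl7 and Emilin1 values lay below it. The highest, Egfl7 1451428_x_at (3.36 ± 0.20), was within its SE of the lowest marker, Tek (3.38 ± 0.20). Whether Egfl7 and these markers differ was not tested. Mmrn1 has only its bound of 9.25-fold and is not placed in the marker range. In Flk1 KO embryos the same 8 genes differed from WT embryos by -2.88 to -0.98. Of them 3 were called lower (Tie1, Esam and Cldn5, each lost on leaving out any 1 array), against 0.0799% of all probe sets tested. All 8 had Flk1 KO arrays entirely below WT arrays, against 21.4% of all probe sets tested. Flk1 KO means were below background for 6 of these 8 markers, as for 3 of the 4 Mmrn2 probe sets, so the sizes of those differences depend on the pseudocount. The part of endothelial cell content in the Mmrn2 and Egfl7 values was not tested.

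Blood cell markers moved with the Flk1-positive cells too. Summed primitive erythroid markers (5 genes) were 37888 and 39760 in Flk1-positive cells, 216 and 143 in Flk1 KO embryos, and 683 and 415 in WT embryos. Summed megakaryocyte and platelet markers (6 genes on the array) were 3629 and 3456 in Flk1-positive cells, 489 and 338 in Flk1 KO embryos, and 501 and 524 in WT embryos. Of the 4 platelet markers tested, Itga2b and Pf4 were higher in the cells and Gp1bb and Gp6 had no call, while Gp9 and Ppbp were too dim to test. Itga2b is the probe set already read above as a platelet integrin gene, and it gave 2457 and 2367 of the sums in Flk1-positive cells. The 4 macrophage markers summed to 664 and 588 in Flk1-positive cells, 233 and 238 in Flk1 KO embryos, and 259 and 212 in WT embryos, with Csf1r called higher in the cells. The part of blood cells in the Mmrn1 and F5 signals of Flk1-positive cells was not tested.

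Markers of other tissues were read beside Emilin2. The 5 cardiomyocyte markers summed to 1217 and 1158 in Flk1-positive cells, 32466 and 21868 in Flk1 KO embryos, and 16047 and 16601 in WT embryos. Mural and mesenchymal markers (8 genes) summed to 4313 and 3954 in Flk1-positive cells, 17286 and 14922 in Flk1 KO embryos, and 12025 and 11591 in WT embryos, with 3 of the 8 called lower in the cells and 0 called in Flk1 KO embryos. Of the cardiomyocyte markers 4 were called lower in Flk1-positive cells against WT embryos, where 14.4% of all probe sets tested were, and 0 were called in Flk1 KO embryos. In Flk1 KO embryos all 5 had signals entirely above those of WT embryos, against 16.7% of all probe sets tested. The 4 yolk sac endoderm markers summed to 6394 and 6198 in Flk1-positive cells, 21403 and 22993.5 in Flk1 KO embryos, and 15091 and 17259.7 in WT embryos. The 4 neuroectoderm markers summed to 224 and 115 in Flk1-positive cells, 6715 and 7424 in Flk1 KO embryos, and 7966 and 7795 in WT embryos. Their Flk1 KO sums lay below WT, while those of the other 3 lists lay above. Bright genes weigh most in such sums. In Flk1 KO against WT embryos Afp differed by 1.13, Apoa1 by 0.50, Ttr by 0.07 and Apob by -0.67, all without a call. The mural and mesenchymal markers ran from 0.03 to 1.33, with Acta2, the brightest, at 0.57. All 8 yolk sac endoderm and neuroectoderm markers were called lower in Flk1-positive cells than in WT. The calls of the yolk sac markers Afp and Apob were lost without either Flk1-positive or either WT array, and that of Apoa1 without Flk1-positive replicate 2 or either WT array. The part of these tissues in the Emilin2 signal was not tested.

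**Figure D4:**
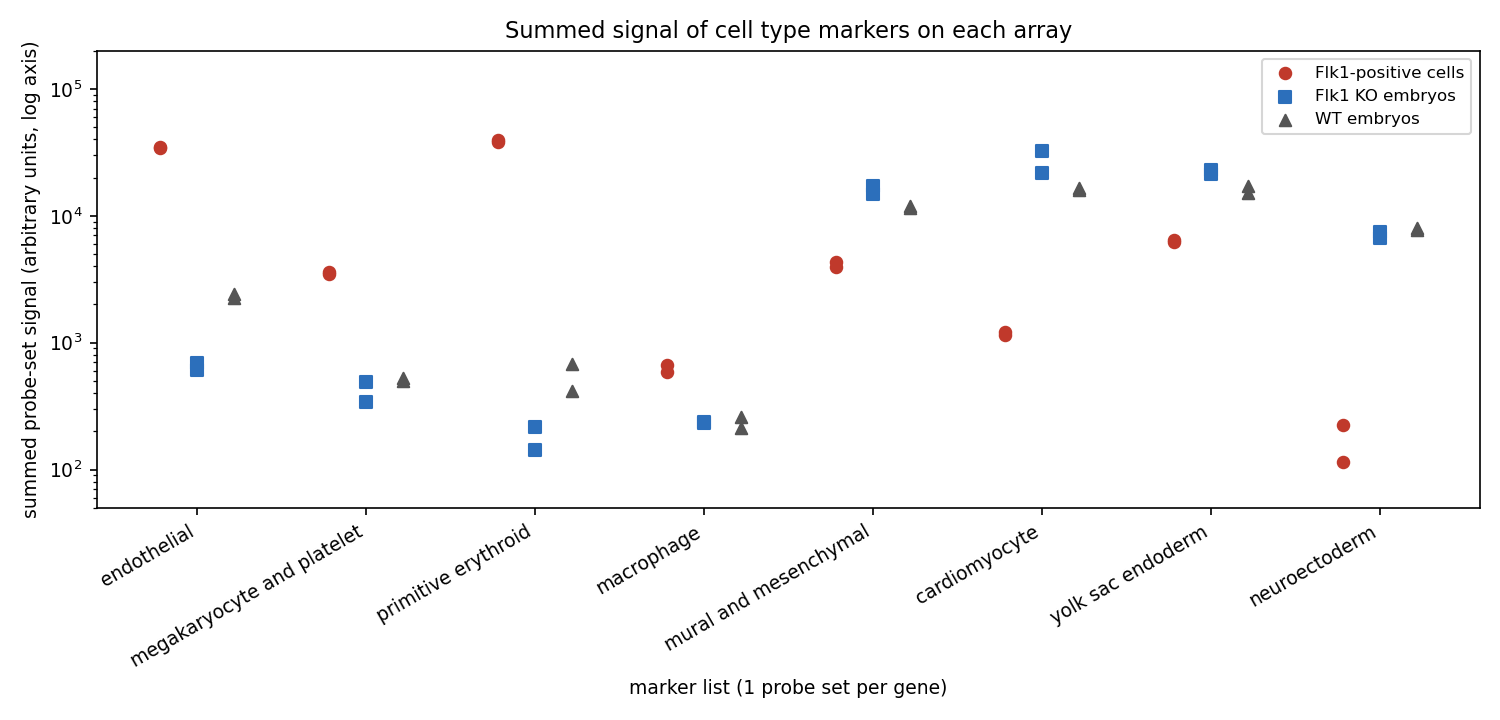
Summed signal of each cell type marker list on each array (log axis, 1 probe set per gene, 2 arrays per group). Endothelial and blood markers are highest in Flk1-positive cells, and cardiomyocyte, mural, yolk sac endoderm and neuroectoderm markers are lowest there.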

How the data were processed

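Total RNA was labelled with biotin and hybridised to Affymetrix arrays, per the labels' protocols, and the series design text names GeneSpring. The deposited table holds a linear probe-set signal; its trimmed mean was 500 on each array and its floor 1, so values were scaled before deposit by a program not given in the sources used here. Gene names come from the platform annotation, for probe sets given 1 symbol there (34958 of 45101).

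Signals were transformed as log2(signal + 21.6), the 25th percentile of all values. Of the probe sets other than 64 array controls, the 33778 whose mean log2 value reached the 25th percentile went into a linear model (lmFit, then eBayes, of limma 3.58.1 under R 4.3.3). Group was its only term and all 6 arrays entered, leaving 3 residual degrees of freedom beside 2.49 from the prior. Tests were two-sided, p-values were adjusted by Benjamini-Hochberg across all 33778, and the threshold was 0.05. Background was set on each array at the 95th percentile of 80 probe sets for olfactory or vomeronasal receptors, then averaged.

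The 5 genes, the gene and marker lists and the tests were chosen with earlier results of these data known. All member probe sets are named. A listed gene is represented by its probe set of highest mean signal. The 3 nearest genes of each member's brightest probe set were named, among genes with a group mean above background and without clone names. Of these, 1 near Mmrn1 is not reported here. Sequences are RefSeq's, GRCm38.p6; no array coordinates are given. Alternatives were the pseudocount, the filter, 2 normalizations, a replicate block, a fit of only the 2 groups in question, a prior that is robust and follows intensity, and the omission of single arrays. Scripts were tested on simulated data before use. Plots used Python 3.11.15 with matplotlib 3.10.9.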

Additional observations from a re-analysis of the deposited data

How the results depend on the processing

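Under all 15 alternatives the 11 probe sets of Mmrn1, Mmrn2, Egfl7 and Emilin1 stayed above both WT and Flk1 KO embryos in Flk1-positive cells, and Emilin2 stayed lower than in Flk1 KO embryos. The Emilin2 call against WT embryos ended (0 probe sets lower) with the pseudocount at the 10th percentile, without a filter and with the replicate block, and on leaving out single arrays the count ran from 0 to 1. In Flk1 KO against WT embryos, where 1 member probe set was lower, 0 were lower with the pseudocount at the 10th percentile, with only the 2 groups compared, with the replicate block and on leaving out any array (0 to 0). In these settings 0 of all 33778 probe sets were called in that comparison, so the loss is not particular to Mmrn2. With the pseudocount at the median 4 were lower, the Mmrn2 probe sets; with the filter at the 50th percentile 5 were, 3 of Mmrn2 and 2 of Egfl7, and with the intensity trend and robust prior 8, all those of Mmrn2 and Egfl7. Over all probe sets this comparison gave 27 lower and 0 higher, 68 and 6 with the median pseudocount, 86 and 7 with the stricter filter, and 121 and 13 with the trend. The cause of these shifts was not tested. Mmrn1, below background in all embryos, ran from -0.43 to 0.11 on leaving out single arrays, changing sign without Flk1 KO replicate 2 (0.056) and without WT replicate 2 (0.11). Emilin1 1416414_at changed sign with median centring (0.071). None of these had a call. Of 120 differences of listed genes without a call, 30 changed sign under some alternative, 0 of them with a call, and 29 gained a call under some alternative, Eln, Fbn2 and Emilin3 in Flk1-positive cells among them. Same-numbered arrays of different groups did not deviate together (correlations of 0.0080 to 0.029), and the replicate block changed no other member call.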
